A study of Mus musculus with 131 samples.

Results

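HNF6, the product of Onecut1, was mapped by ChIP-Seq in liver of wild-type (WT) mice and of mice whose Tet2 and Tet3 genes had been removed from hepatocytes after birth (DKO), with 2 libraries of each genotype. The members described here were the 4000 peaks with the highest findPeaks score in each of the 4 libraries, 16000 of the 57712 peaks listed, and these libraries were 4 of the 131 samples of the series. The score is HOMER's count of tags at a peak, not scaled to the library total, so it is compared only within a library. Peaks that overlapped by at least 1 bp were merged, which left 6530 positions.

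All animals were C57Bl. The labels give wild type for one group and, for the other, deletion of TET2 and TET3 in hepatocytes after birth, which the study made with Tet2 F/Tet3 F mice and an AAV8 virus that carried Cre under the hepatocyte-specific Tbg promoter. Neither the age, the sex nor the day of injection is given for these 4 livers, and the sources used here do not say whether the WT animals carried the floxed alleles or received virus. The labels give the tissue as liver, while the study's methods describe hepatocytes purified by a gradient and by sorting of CD45-negative cells and its account of this experiment speaks of hepatocytes, so which cells gave the chromatin is unclear here. Cells without Tbg-Cre activity keep Tet2 and Tet3. Methylation came from whole-genome bisulfite sequencing (WGBS) of hepatocytes, with 1 library each from WT mice of 1 week and 15 weeks and from DKO mice of 15 weeks injected on day 1. Open chromatin came from 2 WT and 2 DKO ATAC-Seq libraries that the labels give as liver. The study describes their source as hepatocytes from adults of 15 weeks, with the deletion made on day 1 in the DKO mice. H3K27ac and H3K4me1 came from 1 WT and 1 DKO hepatocyte library each, all of 15 weeks, with the DKO mice injected on day 1. RNA came from 3 control and 3 DKO hepatocyte samples of 15 weeks, both injected with virus on day 1.

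HNF6 is a liver-enriched factor of the ONECUT family that holds a cut domain beside a homeodomain, and it acts in hepatocytes and in the biliary tree on genes of glucose, bile acid and lipid metabolism. Its best sites read TATTGAT or TATCGAT, which differ in that the second carries a CpG, the substrate of DNA methylation, within the bound letters. TET2 and TET3 oxidize 5-methylcytosine, the step that opens the way to its removal, and many enhancers of hepatocytes lose methylation in the weeks after birth. The comparison asks whether HNF6 occupied the same places when that loss was prevented.

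Examples of the DNA under these peaks were chosen by rank: of each class of positions, those with the highest mean score among positions with TATCGAT and with TATTGAT in the central 200 bp. Each is given on the plus strand of mm9, 5′ to 3′, and capitals mark the motif in either orientation. The first come from positions found in both WT lists and in neither DKO list. The position in an intron of Mitd1 (chr1:37934949-37935148) held the CpG-bearing motif in reverse, and the tile under it was 80.6% methylated at 1 week, 25.3% in adult WT and 82.8% in DKO hepatocytes.
Mitd1: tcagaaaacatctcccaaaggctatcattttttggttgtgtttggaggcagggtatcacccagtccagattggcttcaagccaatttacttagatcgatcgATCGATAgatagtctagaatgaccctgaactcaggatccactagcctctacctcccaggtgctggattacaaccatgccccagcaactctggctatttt
The position nearest to the start of E130114P18Rik, inside the span of Nfia (chr4:97450910-97451109), held the CpG-free motif, with 58.0%, 6.27% and 77.3% methylation in the same order. The same stretch also held ATCGAT, the CpG-bearing motif less its first letter, which is not marked.
E130114P18Rik: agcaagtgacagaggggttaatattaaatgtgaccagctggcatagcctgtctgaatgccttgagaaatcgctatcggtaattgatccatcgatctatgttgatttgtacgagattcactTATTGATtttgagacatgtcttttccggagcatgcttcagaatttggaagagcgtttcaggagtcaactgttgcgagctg
The Igf1 intron (chr10:87360129-87360328), added after its values were seen, held TATCGAT in reverse and went from 90.7% methylation at 1 week to 12.3% in the adult and to 70.8% in DKO hepatocytes.
Igf1: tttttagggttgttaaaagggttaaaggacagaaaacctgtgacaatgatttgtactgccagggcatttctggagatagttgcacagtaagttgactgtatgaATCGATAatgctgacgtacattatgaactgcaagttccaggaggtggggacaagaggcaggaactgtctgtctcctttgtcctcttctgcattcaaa
The next come from positions in both DKO lists and in neither WT list. Near Fmnl1 (chr11:103030023-103030222) the tile had 1.87%, 0% and 5.37% methylation, and upstream of Eci2 (chr13:35243785-35243984) it had 0%, 0% and 8.33%.
Fmnl1: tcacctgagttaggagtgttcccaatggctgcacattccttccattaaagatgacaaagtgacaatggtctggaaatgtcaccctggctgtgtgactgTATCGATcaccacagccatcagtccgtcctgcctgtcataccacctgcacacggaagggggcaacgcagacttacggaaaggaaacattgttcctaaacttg
Eci2: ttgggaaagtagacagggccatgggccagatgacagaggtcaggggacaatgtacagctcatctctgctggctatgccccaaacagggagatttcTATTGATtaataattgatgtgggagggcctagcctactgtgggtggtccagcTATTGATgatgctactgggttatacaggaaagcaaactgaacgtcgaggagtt
The last come from positions in all 4 lists. The Zfp689 promoter (chr7:134592517-134592716) was at most 1.07% methylated in the 3 WGBS libraries and the intergenic position near Taf8 (chr17:47610009-47610208) had 4.48%, 0% and 2.13%.
Zfp689: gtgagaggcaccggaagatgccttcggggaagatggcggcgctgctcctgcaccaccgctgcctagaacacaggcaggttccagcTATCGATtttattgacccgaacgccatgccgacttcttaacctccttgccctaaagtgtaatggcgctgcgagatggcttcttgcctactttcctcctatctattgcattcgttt
Taf8: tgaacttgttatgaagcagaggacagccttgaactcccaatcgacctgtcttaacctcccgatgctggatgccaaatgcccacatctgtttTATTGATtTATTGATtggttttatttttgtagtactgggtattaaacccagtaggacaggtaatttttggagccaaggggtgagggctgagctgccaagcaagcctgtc
Among all 200 bp windows of the genome without unread bases, 3.17% held TATTGAT and 0.366% held TATCGAT on either strand, against 49.3% and 7.57% of the 6530 positions. A match describes the letters only.

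The 4 libraries differed in quality, and part of that difference followed genotype. They held 31259057 tags in WT 1, 16332796 in WT 2, 26762771 in DKO 1 and 13437081 in DKO 2. The share of tags inside peaks was 0.33% and 1.05% in WT against 0.95% and 5.58% in DKO, and 4387, 9355, 9305 and 34665 peaks were listed in the same order. The weakest list was thus that of WT 1, of which 91.2% was used, and the strongest that of DKO 2, of which 11.5% was used. A fixed number per library takes the same number of peaks from each, but not the same depth of evidence. The last peak inside the limit had a score of 16 in WT 1, 17 in WT 2, 24 in DKO 1 and 40 in DKO 2, and the first peak outside had the same score in each, so that 508, 416, 287 and 145 peaks were tied there. Of the full lists, 28 and 80 peaks in WT (0.638% and 0.855%) and 107 and 468 in DKO, up to 1.35% in DKO 2, were on the X chromosome. The part of the sex of the animals in any result was not tested.

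Onecut1 RNA itself was read in both genotypes. In hepatocytes of injected controls its level was 3.73, 9.76 and 0.714 FPKM, and in DKO hepatocytes 46.2, 14.0 and 15.6 FPKM. The groups did not overlap, yet the spread within each was wide, and the log2 change of 2.36 ± 0.91 (SE, n = 3 per group) did not pass the threshold (limma, adjusted p = 0.081). Onecut2, a second member of the family, had 5.93 ± 1.45 against 6.69 ± 1.98 FPKM (mean ± SD, n = 3). Tet2 read 2.13, 1.63 and 0.890 FPKM in controls against 4.08, 2.82 and 3.16 FPKM in DKO (log2 change 0.79, SE 0.20, limma adjusted p = 0.0171), and Tet3 2.11, 2.55 and 1.68 against 2.78, 1.74 and 2.65 (adjusted p = 0.61). These are values of whole genes, which hold exons outside the deleted part, and so do not check the deletion. All 6 RNA samples had male transcripts, with Xist between 0 and 0.0350 FPKM and Ddx3y between 9.84 and 13.5 FPKM. How far the amount of HNF6 accounts for the strength of the DKO libraries was not tested.

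The nearest genes of the positions were set against fixed lists. Of 30 liver transcription factors, 25 had at least 1 of the 6530 positions nearest to them, where 4215 of the 22238 annotated protein-coding genes (19.0%) and 28.1% of those tested in RNA had one, against 3 of 8 biliary markers, 1 of 8 Kupffer and leukocyte markers and 1 of 10 endothelial and stellate markers. In the hepatocyte RNA the summed level of the biliary list was 13.0 to 21.5 FPKM in controls and 8.75 to 13.2 in DKO, that of the Kupffer and leukocyte list 4.05 to 7.11 against 1.79 to 3.63, and that of the endothelial and stellate list 6.25 to 9.77 against 3.79 to 6.56. The DKO sums lay below the control sums in the Kupffer list and overlapped them in the other lists. Of these lists 6 of 8, 5 of 7 and 6 of 10 genes listed were under 1 FPKM in every sample. Their part in any result was not tested.

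HNF6 occupied many of the same places in both genotypes. Of the 6530 positions, 1996 were in all 4 lists and 2101 in 1 list only. WT 1 and WT 2 shared 2753 positions (68.8% of 4000), and DKO 1 and DKO 2 shared 3258 (81.5%). Between genotypes the 4 pairs shared 2542 to 2707 positions (63.6% to 67.7%). Sharing was on average 9.54 points higher within a genotype than between (75.1% against 65.6%), and the larger part of that came from the DKO pair, since WT 2 shared 67.6% and 67.7% with the DKO libraries and 68.8% with WT 1. With 2 libraries against 2 an exact permutation test cannot fall below p = 0.33, the value found here (two-sided), and the same holds for each comparison of library shares that follows.

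A set of 493 positions was in both WT lists and in neither DKO list, 7.55% of all positions, and 477 were in both DKO lists and in neither WT list, 7.3%. The counts were thus nearly equal, and they grow when 1 list is left out: without WT 1 they were 1055 and 793, without WT 2 1226 and 946, without DKO 1 620 and 882, and without DKO 2 630 and 878. Absence from a list of 4000 is not absence of binding. Of the 493 WT positions, 44.4% were somewhere in the full list of DKO 1, 79.5% in that of DKO 2 and 19.3% in neither. Of the 477 DKO positions, 8.18% were in the full list of WT 1, 69.4% in that of WT 2 and 28.5% in neither. In bulk chromatin, fewer cells with HNF6 bound at a place and less binding per cell cannot be told apart.

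The methylation of the DNA under the peaks separated the genotypes. In WT 1, 20.8% of peaks with WGBS values (95% Wilson interval 19.5 to 22.2%, n = 3340) had their centre on a 200 bp tile that lost at least 35 percentage points of methylation between 1 week and 15 weeks, and in WT 2 18.4% did (17.1 to 19.8%, n = 3405). In DKO 1 and DKO 2 the shares were 6.81% (5.99 to 7.72%, n = 3276) and 6.82% (6.01 to 7.74%, n = 3283). The means were 19.6 ± 1.7% in WT and 6.82 ± 0.01% in DKO (SD, n = 2), a difference of 12.8 points that exceeded the spread between libraries. Such tiles are 1.63% of all tiles with 3 values in the genome, so HNF6 peaks lay on them more often than tiles at large in both genotypes. These intervals cover counting error only.

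Tiles more methylated in DKO than in adult WT split the libraries likewise. Peaks on tiles at least 35 points more methylated in DKO than in adult WT hepatocytes made up 30.9% of WT 1 and 27.7% of WT 2 but 13.1% of DKO 1 and 12.4% of DKO 2. Over the genome 70.6% of the tiles that fell after birth were also higher in DKO by that margin. The converse held for tiles under 20% methylated at 1 week, which carried 62.8% and 65.8% of WT peaks against 81.2% and 81.9% of DKO peaks. In full lists the shares on tiles that fell after birth were 21.0% and 19.0% in WT against 10.4% and 10.0% in DKO, so the gap was smaller but did not rest on the limit of 4000. Peaks further down the lists lay on such tiles more often than the leading 4000 did in every library. The shares were 22.5% in WT 1 (n = 311), 19.5% in WT 2, 13.3% in DKO 1 and 10.5% in DKO 2.

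**Figure D1:**
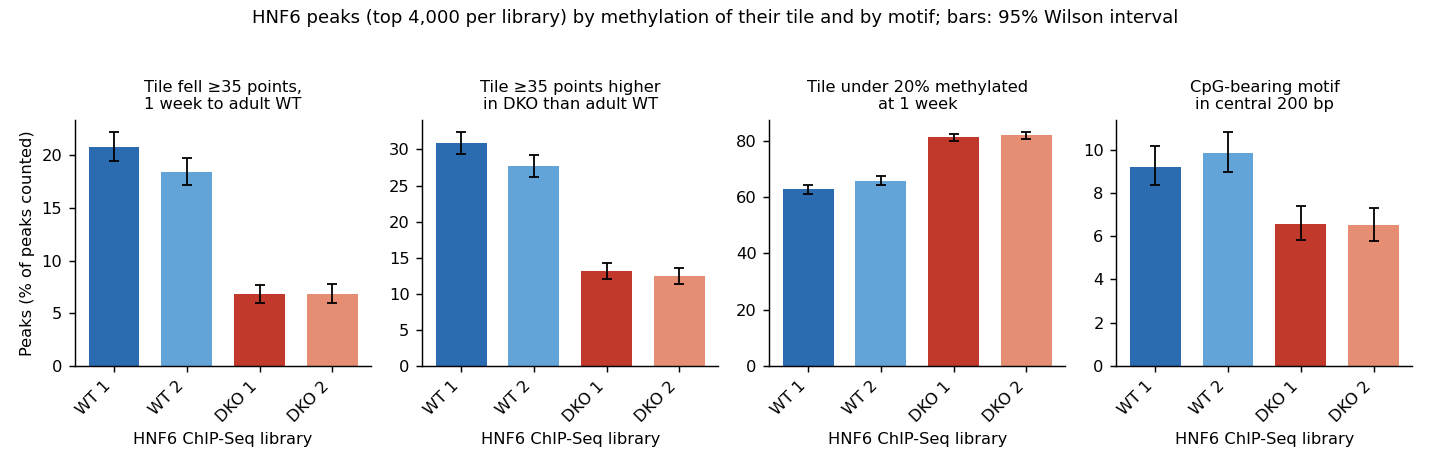
Share of the 4000 HNF6 peaks of each library (y axis, percent of peaks; the first 3 panels count peaks with WGBS values) whose tile lost at least 35 points of methylation after birth, was at least 35 points higher in DKO, or was under 20% at 1 week, and share with TATCGAT in the central 200 bp. Bars are single libraries with 95% Wilson intervals, and both DKO libraries lie below both WT libraries in panels 1, 2 and 4 and above them in panel 3.

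Motif content was lower in DKO peaks in the CpG-bearing form. TATTGAT was in 50.3% and 53.0% of WT peaks and in 50.5% and 51.1% of DKO peaks, ranges that overlapped. TATCGAT was in 9.23% (8.37 to 10.2%) and 9.88% (8.99 to 10.8%) of WT peaks but in 6.58% (5.85 to 7.39%) and 6.50% (5.78 to 7.31%) of DKO peaks, a ratio of 0.685. Either motif was in 60.1 ± 2.4% of WT and 56.8 ± 0.3% of DKO peaks (SD, n = 2). Letters of other factors were searched too. TGTTTAC, read by FOXA proteins, was in 5.41 ± 0.27% of WT and 5.73 ± 0.28% of DKO peaks against 2.98% of genome windows, and TTGCNNAA, read by C/EBP proteins, in 16.1 ± 0.51% and 15.99 ± 0.16% against 9.35%. CAAAGTCCA, read by HNF4A, was in 1.25% and 1.23% against 0.255%, TTAATNATT, read by HNF1, in 3.78% and 3.98% against 1.69%, and TTCNNNGAA, read by STAT proteins, in 8.675% and 7.95% of the WT libraries and 7.30% and 7.60% of the DKO libraries against 7.43%, where both WT libraries lay above both DKO libraries. All were searched on both strands of the same central 200 bp.

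DKO peaks also overlapped open chromatin and lay near promoters more often. A peak of both WT ATAC-Seq libraries overlapped 34.5% and 34.8% of WT peaks against 39.95% and 43.2% of DKO peaks. A peak of both DKO ATAC-Seq libraries overlapped 43.0% and 43.3% against 54.0% and 57.4%. The centre lay within 1 kb of a transcription start in 12.1% and 13.7% of WT peaks against 16.4% and 16.2% of DKO peaks. In each of these 3 measures both DKO libraries lay above both WT libraries. The peak size was 185 and 158 bp in WT against 201 and 248 bp in DKO, and overlap was read over the whole peak. Wider peaks meet a region more easily, and the part of width in the ATAC-Seq measures was not tested. The ATAC-Seq lists held 47639 and 57166 peaks in WT and 50704 and 65515 in DKO, and covered 6.19 and 8.12 Mb against 9.33 and 9.30 Mb.

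Within the positions the 3 classes were then described one beside the other. The classes were chosen from the HNF6 peaks alone, and WGBS, ATAC-Seq and histone data had no part in it. Positions of the WT class had a median methylation of 58.5% at 1 week, 5.63% in adult WT and 67.1% in DKO hepatocytes (n = 459 with values). Positions of the DKO class had 3.75%, 1.37% and 5.49% (n = 377), close to the 4.22%, 1.47% and 5.60% of the positions in all 4 lists (n = 1673). Of the WT class 57.5% fell by at least 35 points after birth and 73.0% were higher in DKO by that margin, against 4.51% and 7.43% of the DKO class, 6.63% and 12.6% of the positions in all 4 lists, and 17.3% and 26.5% of all positions. Of the 264 tiles of the WT class that fell after birth, 252 were also at least 35 points higher in DKO than in adult WT. Tiles methylated at 80% or more at both ages carried 1 position in the WT class and 1 in the DKO class.

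Positions of the WT class were mostly far from starts. Only 27 of its 493 positions (5.48%) lay within 1 kb of a transcription start, against 84 of 477 (17.6%) in the DKO class and 310 of 1996 (15.5%) of those in all 4 lists, while 45.2% lay in introns and 46.9% between genes. H3K4me1, which marks enhancers, covered 87.4% of the WT class in WT and 74.0% in DKO hepatocytes, and H3K27ac, a mark of active elements, covered 50.5% and 37.1%. In the DKO class both marks went the other way, with H3K4me1 at 74.8% in WT and 85.5% in DKO and H3K27ac at 55.3% and 65.4%. Both also rose at the positions in all 4 lists, H3K4me1 from 81.4% to 87.5% and H3K27ac from 61.6% to 68.8%. ATAC-Seq peaks met 22.5% of the WT class in WT and 14.8% in DKO, against 38.6% and 58.3% of the DKO class and 48.2% and 60.4% of the positions in all 4 lists. The WT class was also weaker in the WT libraries themselves. Its median normalized tag counts were 6.72 in WT 1 and 12.9 in WT 2, against 8.32 and 17.1 for positions in all 4 lists. The part of peak strength and peak width in these differences between classes was not tested. The DKO histone lists were longer than the WT lists (46782 against 43085 H3K27ac regions and 77859 against 70466 H3K4me1 regions), so the decline at the WT class ran against the overall change, but each mark and genotype had 1 library and no replicate check. Regions of 5hmC, the product of TET enzymes, came from 1 hepatocyte library that the study took from 20-day-old mice, and its title names no genotype. They met 18.1% of the WT class against 11.3% of the DKO class, 11.8% of the positions in all 4 lists and 12.9% of all positions. The CpG-bearing motif was in 20.1% of the WT class, 2.94% of the DKO class, 8.42% of the positions in all 4 lists and 7.57% of all positions. The CpG-free motif was in 43.4%, 42.6%, 56.1% and 49.3%.

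**Figure D2:**
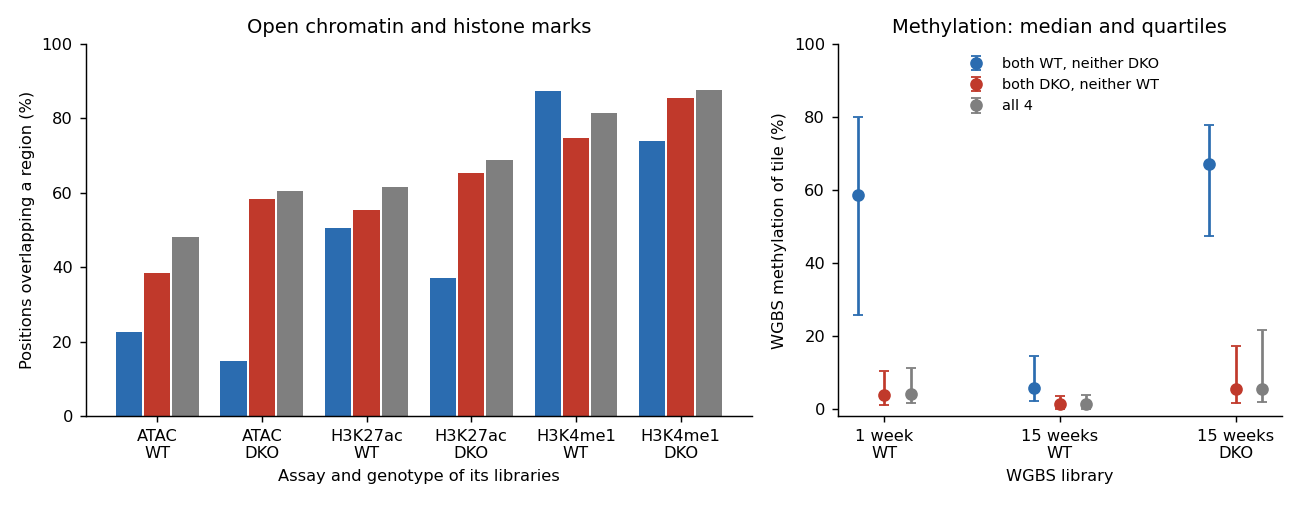
Left, share of positions of each class (y axis, percent) that overlapped an ATAC-Seq peak of both libraries or a histone region of 1 library of the named genotype. Right, median and quartiles of WGBS methylation of the tile (y axis, percent) in 3 libraries. Positions in both WT lists and neither DKO list sit at 58.5%, 5.63% and 67.1%, while both other classes reach at most 5.60% at the median.

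Seen from the WT side, the fate of a position followed its methylation in DKO hepatocytes. Of the 2753 positions in both WT lists, 1996 were in both DKO lists, 264 in 1 and 493 in neither. Where the tile was under 20% methylated in DKO, 1225 of 1341 positions (91.3%) were in both DKO lists and 40 (2.98%, 95% Wilson interval 2.2 to 4.04%) in neither. From 20 to 40% methylation 17.2% were in neither (n = 303), from 40 to 60% 34.6% (n = 266), from 60 to 80% 59.7% (n = 318) and from 80 to 100% 68.0% (59.4 to 75.5%, n = 125). The share thus rose from each bin to the next. Seen from the DKO side no such rise was present: of the positions in both DKO lists, 14.7% of those under 20% methylated in DKO were in neither WT list (n = 2024) and 8.70% of those above 80% were (n = 46).

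The relation was present at every rank in the WT lists. Among positions in both WT lists with a mean rank up to 1000, 36.4% of the 176 that were at least 35 points more methylated in DKO than in adult WT were in neither DKO list, against 1.63% of the 553 others. In the next 1000 ranks the shares were 50.5% and 4.15%, in the 1000 after those 61.2% and 10.53%, and in the last 1000 75.8% and 30.2%. Within either group the share grew toward the lower ranks.

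The shares also differed by the form of the motif. Among positions in both WT lists that were at least 35 points more methylated in DKO than in adult WT, of which 100 of 636 had been under 20% at 1 week, 71.2% of those with TATCGAT were in neither DKO list (62.1 to 78.8%, n = 111), against 39.0% of those with TATTGAT but no TATCGAT (33.7 to 44.5%, n = 313) and 63.2% of those with neither (56.5 to 69.4%, n = 212). Among the other positions the shares were 9.24% (n = 184), 6.80% (n = 824) and 7.19% (n = 709). Those 3 shares had overlapping intervals. WGBS was read over tiles of 200 bp, so the methylation of the motif's own CpG is not known from these values, and the difference between motifs was not tested.

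**Figure D3:**
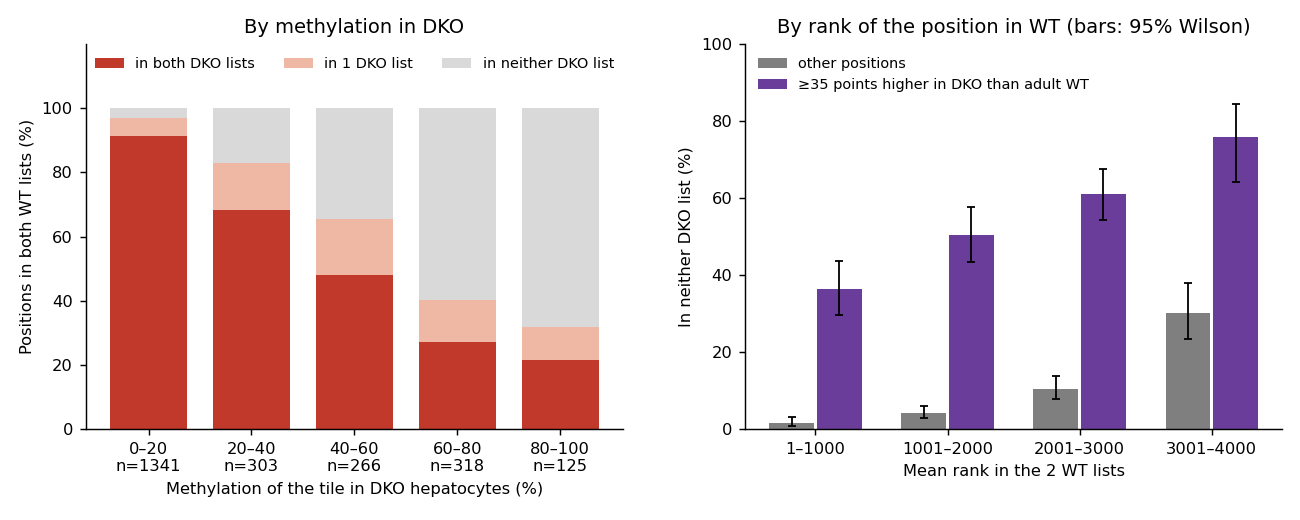
Left, the positions in both WT lists by tile methylation in DKO hepatocytes (x axis, percent), divided into those in both, 1 or neither of the DKO lists (y axis, percent of positions). Right, share in neither DKO list by mean rank in the WT lists, for positions at least 35 points more methylated in DKO than in adult WT and for the others, with 95% Wilson intervals. The grey part grows from 2.98% to 68.0% on the left, and the purple bars exceed the grey bars at every rank on the right.

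Tag counts gave a graded measure. They lie behind the score that ordered the lists, so they are not separate support for the classes. At the 3188 positions present in all 4 full lists, normalized tag counts (per 10000000 tags) had medians of 7.36 in WT 1, 14.7 in WT 2, 13.5 in DKO 1 and 44.7 in DKO 2, so each library was centred on its median before log2 counts were compared with limma. Relative to this centre 171 positions (5.36%) were lower and 46 (1.44%) higher in DKO at an adjusted p under 0.05. These counts depend on scaling and on each library. Without centring none passed in either direction, 0 also at an unadjusted p under 0.05, while the median position was then 1.27 higher in DKO on the log2 scale. Quantile normalization gave 58 lower and 1 higher. A fit without 1 library leaves that genotype with 1 library and no spread of its own, so its calls are not given. In such fits the median change at positions at least 35 points more methylated in DKO than in adult WT was set against that of the others. The gap was −0.50 without WT 1, −0.66 without WT 2, −0.63 without DKO 1 and −0.55 without DKO 2.

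The lowered positions lay mostly on tiles more methylated in DKO than in adult WT by at least 35 points, and 95 were on tiles that fell after birth. Of the 573 positions at least 35 points more methylated in DKO than in adult WT, 131 (22.9%) were lower and 0 higher (limma, adjusted p under 0.05), against 34 lower and 40 higher of 2083 others. Of the 171 lower positions 165 had WGBS values, with medians of 53.8% at 1 week, 4.35% in the adult and 64.5% in DKO, and 19.3% held TATCGAT against 8.28% of all 3188 and 17.4% of the 46 higher positions. The 40 higher positions with values had medians of 1.49%, 1.44% and 2.86%. The median log2 change went from 0.16 where DKO methylation exceeded adult WT by under 20 points (n = 1779) to −0.22 from 20 to 40 points (n = 388), −0.44 from 40 to 60 (n = 278) and −0.67 above 60 (n = 211).

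A measure that needs no scaling between libraries, added after the data were seen, compared positions within each library. In WT 1 the median log2 tag count of positions at least 35 points more methylated in DKO than in adult WT equalled that of the others (a difference of 0), and in WT 2 the difference was −0.18. In DKO 1 it was −0.67 and in DKO 2 −0.72. The gap was −0.09 ± 0.13 in WT and −0.70 ± 0.03 in DKO (SD, n = 2), and the genotypes did not overlap (exact permutation p = 0.33, the smallest possible). Among positions with TATCGAT the gap was 0.16 and 0.07 in WT but −1.07 and −1.14 in DKO. Among those with TATTGAT and no TATCGAT it was −0.06 and −0.24 in WT and −0.66 and −0.68 in DKO. DKO minus WT was thus −1.22 at the CpG-bearing motif and −0.52 at the CpG-free one, on the log2 scale. The positions at least 35 points more methylated in DKO numbered 58 with the CpG-bearing motif and 334 with the CpG-free one only. Positions with neither motif were not compared in this way. These positions had to be listed in every library, so positions lost from a DKO list altogether are not among them. The full WT 1 list was the shortest, with 4387 peaks and a tag threshold of 16, so positions weak in WT 1 are absent too. How far this filter set the difference of 0 in WT 1 was not tested.

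**Figure D4:**
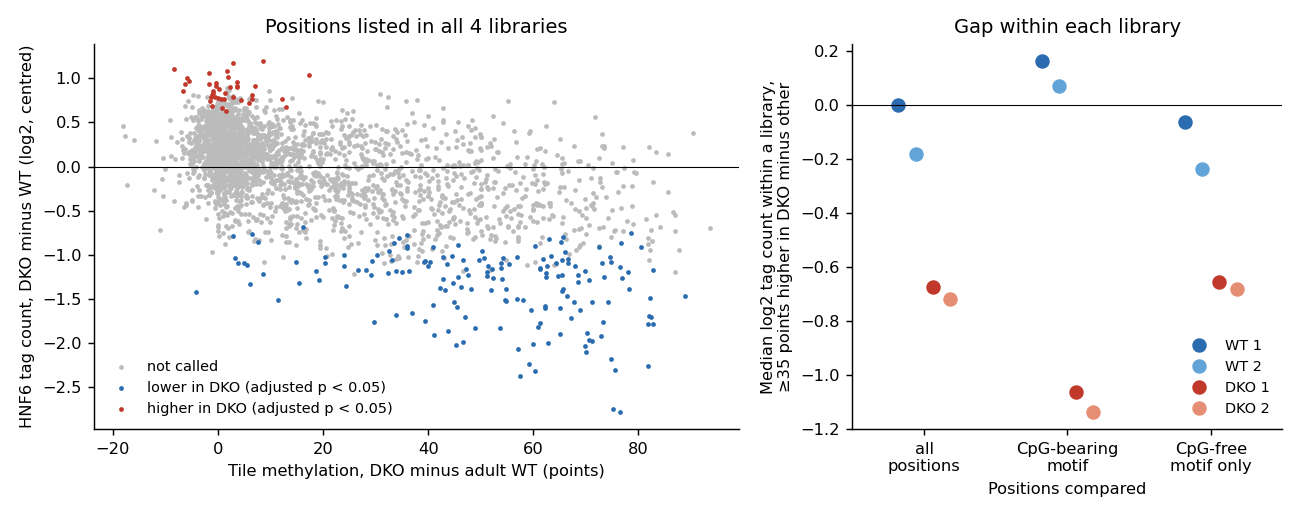
Left, log2 change of the centred HNF6 tag count (y axis, DKO minus WT) against the change in tile methylation (x axis, DKO minus adult WT, percentage points) for 2656 positions with WGBS values, coloured by the limma call. Right, within each library, the median log2 tag count of positions at least 35 points more methylated in DKO minus that of the others, where both DKO libraries lie lowest at the CpG-bearing motif, at −1.07 and −1.14.

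The positions with the highest scores are described site by site. The WT and DKO classes were chosen by tag score, so the direction of the tag counts at their positions follows from that choice. Rai14 is named first because its intergenic position, at −4.29 kb from the start (chr15:10648588-10648772), had the highest mean score of the WT class, and the gene encodes an actin-associated protein. Its normalized tag count was 28.8 in WT 1 and 58.2 in WT 2 against 8.59 in DKO 1 and 23.1 in DKO 2, and its tile was 80.6% methylated at 1 week, 15.5% in the adult and 92.0% in DKO. Both WT counts lay above both DKO counts here. In the fit over shared positions it had the largest change of those lowered, −2.78 on the log2 scale (SE 0.24). Rai14 RNA was 5.95 ± 0.96 FPKM in controls and 6.82 ± 1.03 in DKO (SD, n = 3, limma adjusted p = 0.53).

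Ormdl3, which encodes a regulator of sphingolipid synthesis, had a position at −3.50 kb from its start (chr11:98452092-98452276) with 18.6 and 39.2 tags in WT against 6.35 and 14.1 in DKO. Its tile stood at 83.8%, 2.41% and 77.5% methylation, it met a peak of both WT ATAC-Seq libraries and not of both DKO libraries, and H3K27ac was listed in WT and not in DKO. Ormdl3 RNA was 34.7, 35.2 and 33.1 FPKM in controls and 18.4, 23.7 and 20.5 in DKO, and fell by 0.70 on the log2 scale (SE 0.12, limma adjusted p = 0.00154). Nat8, an acetyltransferase gene of liver and kidney, had a position at −12.1 kb (chr6:85794066-85794250) with TATCGAT, counts of 18.9 and 33.1 in WT against 6.35 and 26.8 in DKO, and methylation of 88.2%, 10.99% and 85.8%. The count of DKO 2 lay between those of the WT libraries there. Nat8 RNA was 24.8, 22.4 and 26.6 FPKM against 8.98, 14.0 and 11.1, and fell by 1.07 (SE 0.29, limma adjusted p = 0.0226).

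The Mitd1 intron shown above had 19.5 and 37.3 tags in WT against 7.85 and 19.3 in DKO, and the position near E130114P18Rik 18.6 and 31.8 against 7.85 and 26.8, where DKO 2 again lay between the WT libraries in counts not scaled between libraries. Relative to the library medians the log2 change at E130114P18Rik was −1.99, in the direction that its class sets. Of the 10 leading WT positions, 9 had WGBS values, and each of these 9 was at most 28.0% methylated in the adult and at least 60.7% in DKO. The others lay in introns of Gm6792, Ppp2r2b, Adarb2, Mia2 and Kif21a. Mia2, a secretory-pathway gene of hepatocytes, held TATCGAT and had 14.7 and 32.5 tags in WT, none listed in DKO 1 and 21.6 in DKO 2, with RNA of 29.7 ± 2.9 and 27.7 ± 6.0 FPKM (adjusted p = 0.70). Kif21a, a kinesin gene, had 15.0 and 30.6 tags in WT, 6.35 in DKO 1 and none listed in DKO 2.

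In the DKO class the leading position lay at −124.9 kb from Eci2, which encodes an enzyme of fatty acid oxidation, with 17.6 and 73.7 tags in DKO, 9.18 in WT 2 and none listed in WT 1. Intron positions of Tbxas1, the thromboxane synthase gene, and of Robo1, an axon guidance receptor gene, had 17.6 and 62.5 and 16.8 and 59.5 tags in DKO against 4.80 and 9.80 and 4.48 and 9.80 in WT. At the promoter of Ugt1a1, the bilirubin-conjugating enzyme, which also lies inside the spans of other Ugt1a genes, the position (chr1:90108352-90108600) was in neither full WT list and had 22.8 and 43.2 tags in DKO. Its tile was between 26.9% and 33.1% methylated in all 3 WGBS libraries, and Ugt1a1 RNA was 128 ± 14.2 against 117.5 ± 5.04 FPKM (adjusted p = 0.78). At the promoter of Pzp, a plasma protease inhibitor gene, there were 11.2 and 64.7 tags in DKO and 7.96 in WT 2. The remaining 5 were near Larp1b, Thy1, Gm6189, Pitpnb and Cux2, and 9 of the 10 leading DKO positions were at most 8.00% methylated in both WT WGBS libraries.

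**Figure D5:**
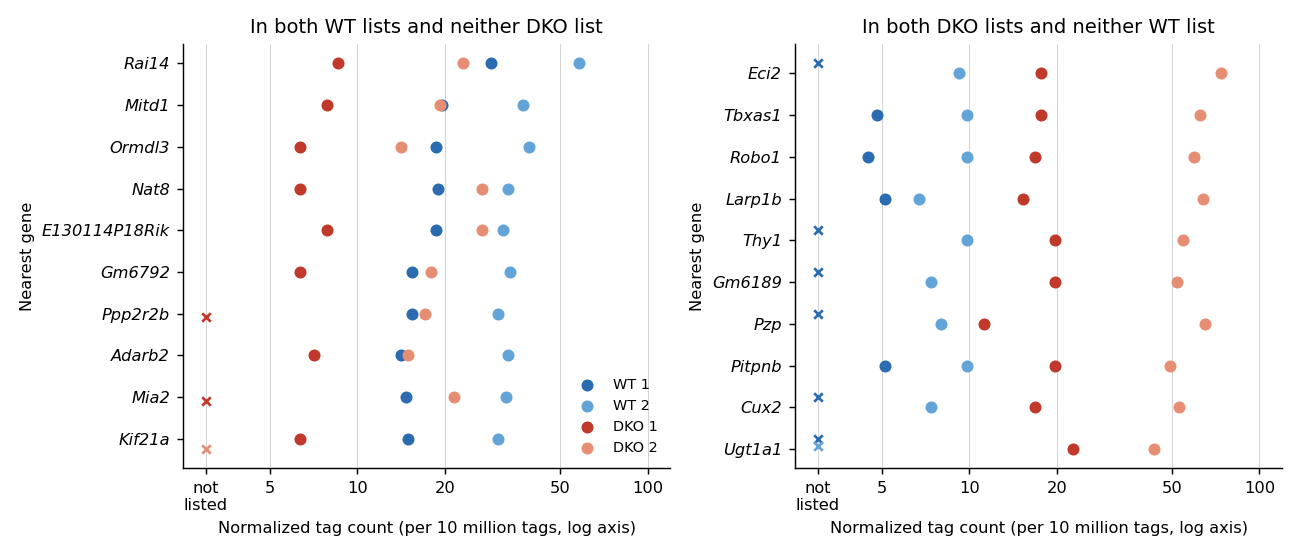
Normalized tag count (x axis, tags per 10000000, log axis) in the 4 libraries at the 10 positions with the highest mean score of the WT class (left) and of the DKO class (right), named by nearest gene. Crosses at the left edge mark libraries whose full list holds no peak there. Left, Rai14 spans 8.59 to 58.2, and right, Ugt1a1 has points for the DKO libraries only.

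The positions in all 4 lists with the highest scores were near 2810405K02Rik, Onecut3, Taf8, Zfp689, Dusp6, Mat1a, Meis1, Ndrg1, Dnajc22 and Gm6657. Each of the 10 was at most 9.60% methylated in every WGBS library. At the leading one counts were 28.5 and 66.1 in WT and 57.9 and 160.0 in DKO, and near Onecut3, a gene of the same family as HNF6, 24.3 and 49.6 against 51.2 and 190.5. Mat1a, the S-adenosylmethionine synthetase gene of adult liver, had 23.4 and 42.2 against 45.6 and 139.9 tags at a position at −8.93 kb, and its RNA rose by 0.61 on the log2 scale (SE 0.20, limma adjusted p = 0.048).

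Of the positions called by the fit, the lowest log2 changes after Rai14 were near Ormdl3 (−2.75), Mitd1 (−2.37), Gm6792 (−2.34) and Ccdc141 (−2.32). At Ccdc141 the tag count was 11.2 and 22.7 in WT against 6.35 and 8.93 in DKO, the tile went from 68.2% to 7.79% and stood at 68.1% in DKO, and both motifs were present. Among the largest rises were those near Larp1b (1.17 ± 0.31), Papss1 (1.11 ± 0.28), Foxa2 (1.08 ± 0.25) and Zcwpw1 (1.06 ± 0.30, as log2 ± SE, limma adjusted p from 0.000631 to 0.0109). The Foxa2 position, 21.0 kb from the start of this liver factor, held TATCGAT on a tile at or below 3.13% methylation and had 6.40 and 15.9 against 32.5 and 78.1.

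The genes nearest to the positions were then read against lists of liver functions. Of all 22238 annotated protein-coding genes, 1677 were nearest to a position in all 4 lists, 469 to the WT class and 459 to the DKO class. These are the background for each list that follows, and no list was tested against them. Of 30 liver transcription factors, 21 were nearest to a position in all 4 lists, among them Hnf4a, Foxa1, Foxa2, Foxa3, Nr1h4, Nr1i2, Prox1 and Onecut1. The WT class touched 4 (Bcl6, Esrrg, Klf9 and Prox1) and the DKO class 3 (Cux2, Onecut1 and Tcf7l2). The position in Prox1 had 7.04 and 14.1 tags in WT against 7.47 and 15.6 in DKO, on a tile at 20.0%, 3.70% and 66.2% methylation. Relative to the library medians its log2 change was −1.12, in the direction that its class sets. Positions near Esrrg, a nuclear receptor gene, and Klf9, a Krüppel-like factor gene, stood at 27.6%, 2.97% and 53.6% and at 90.6%, 35.1% and 83.3%, and that near Klf9 was in neither full DKO list. In the DKO class the position in an exon of Onecut1 itself had 6.12 tags in WT 2, none listed in WT 1, and 9.71 and 46.9 in DKO, and that at the start of Tcf7l2, a Wnt pathway factor gene, had 10.8 and 45.4 in DKO and was in neither full WT list. Of the 29 factors tested in RNA, 6 were lower and 0 higher in DKO, where 15.8% of all 11039 genes tested were lower and 4.24% higher.

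Bile acid and cholesterol genes gave 15 of 25 with a position in all 4 lists, including Cyp7a1, Slc10a1 and Klb. In the WT class the genes were Cyp7b1 and Scarb1. Cyp7b1, an enzyme of the alternative bile acid pathway, had 2 WT positions upstream, on tiles at 69.6%, 8.00% and 77.8% and at 84.3%, 17.2% and 77.7% methylation. The nearer had 8.32 and 9.80 tags in WT against 7.85 and 11.2 in DKO. Relative to the library medians its log2 change was −1.19, in the direction that its class sets. Cyp7b1 RNA was 116, 87.6 and 125 FPKM in controls and 34.3, 32.1 and 21.5 in DKO, and fell by 1.88 on the log2 scale (SE 0.38, limma adjusted p = 0.00534). At Scarb1, the HDL receptor gene, the position had 6.40 and 20.8 tags in WT and was in neither full DKO list, its tile stood at 95.2%, 7.92% and 83.8%, and RNA was 72.8 ± 6.5 against 92.8 ± 3.4 FPKM (adjusted p = 0.16). The DKO class held Baat and Slco1b2, whose RNA fell by 0.80 (SE 0.16, limma adjusted p = 0.00454) and fell by 0.64 (SE 0.16, adjusted p = 0.0162). Of the 24 genes of this list tested, 5 were lower and 3 higher in DKO, beside 15.8% and 4.24% of all genes.

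Among glucose and insulin genes the WT class touched Igf1, Pfkfb3 and Pck1 and the DKO class Gpd2, of 26 genes. The Igf1 intron position shown above had 11.5 and 28.2 tags in WT and was in neither full DKO list, it met an ATAC-Seq peak of both WT libraries and not of both DKO libraries, and Igf1 RNA was 94.4, 84.3 and 124 FPKM against 73.8, 56.8 and 59.3, and fell by 0.65 (SE 0.20, limma adjusted p = 0.0335). Igf1 encodes the hormone through which growth hormone acts, and 8 genes of this list, Igf1 among them, also had a position in all 4 lists. At Pck1, the gluconeogenic enzyme gene, an exon position had 6.72 and 10.4 tags in WT, none listed in DKO 1 and 26.8 in DKO 2, on a tile at 71.9%, 4.64% and 74.5%, and RNA was 1302 ± 256 against 849 ± 351 FPKM (adjusted p = 0.0945). The Pfkfb3 position, near a regulator of glycolysis, was 1.47% methylated at 1 week and 11.9% in the adult, so the WT class also held positions that were low at birth. In RNA 4 of 26 genes were lower and 2 higher, beside 15.8% and 4.24% of all genes.

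Of 31 lipid metabolism genes the WT class held Angptl4, Ehhadh and Acacb, each on a tile that was 49.5% to 66.0% methylated at 1 week, 2.54% to 6.15% in the adult and 58.3% to 79.3% in DKO, and each with H3K27ac listed in WT and not in DKO. Their RNA did not pass the test (adjusted p from 0.17 to 0.75). The DKO class held Dgat2, Pnpla3 and Elovl6, on tiles at most 19.2% methylated. Pnpla3, a lipase-family gene driven by carbohydrate feeding, had 6.12 tags in WT 2 and 13.5 and 34.2 in DKO, and its RNA rose from 0.195, 0.304 and 0.0623 FPKM to 6.05, 7.48 and 10.8 (log2 change 2.91, SE 0.19, limma adjusted p = 4.65e-07). Elovl6, a fatty acid elongase gene, had 6.12 in WT 2 and 10.8 and 33.5 in DKO, with RNA of 11.7, 12.2 and 9.34 against 23.5, 30.8 and 33.2 FPKM (log2 change 1.31, SE 0.17, adjusted p = 0.000233). In RNA 5 of 30 genes of the list were lower and 6 higher, beside 15.8% and 4.24% of all genes.

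Drug metabolism gave 0 of 27 genes in the WT class and 3 in the DKO class: Fmo5, Gstm1 and Ugt1a1. Beside 469 and 459 of all 22238 genes, a count of 0 does not set this list apart. Fmo5 RNA fell by 1.49 (SE 0.26, limma adjusted p = 0.0018). Of the 27 genes tested 9 were lower and 3 higher, beside 15.8% and 4.24% of all genes. Of 29 plasma protein genes the WT class held Mup20 and Plg and the DKO class Alb, Gc and Ttr. The position near Mup20, a major urinary protein gene, had 7.36 and 11.6 tags in WT and was in neither full DKO list, and its tile stood at 82.6%, 0% and 77.4% methylation. Mup20 RNA was 8515, 8173 and 14255 FPKM in controls and 1508, 1693 and 1040 in DKO, without overlap, yet it did not pass the test (log2 change −2.85, SE 1.03, adjusted p = 0.065), and its reads may be shared with near-identical Mup genes. Plg, the plasminogen gene, had 6.40 and 11.6 tags in WT against 7.47 and 16.4 in DKO on a tile at most 4.55% methylated (log2 change −0.88 relative to the medians, limma adjusted p = 0.162). In RNA 2 of 28 genes were lower and 3 higher, beside 15.8% and 4.24% of all genes. Alb is listed at 0 in all 18 RNA columns used, so no value of it is read. Among biliary markers Spp1 was in the WT class and Sox4 in the DKO class, with Spp1 RNA of 13.9 ± 4.5 against 8.23 ± 2.48 FPKM (adjusted p = 0.101). The Sox4 position was 66.7%, 68.8% and 70.0% methylated and had 12.3 and 56.6 tags in DKO against 4.80 and 9.18 in WT. None of the 4 biliary genes tested passed the test.

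RNA of the genes nearest to the classes was read last. Of 11039 genes tested 1747 (15.8%) were lower and 468 (4.24%) higher in DKO than in injected controls, with a median log2 change of −0.11. The WT class had 469 nearest genes, of which 318 were tested, 82 (25.8%) were lower and 14 (4.40%) higher, with a median of −0.23. The DKO class had 459, of which 312 were tested, 54 (17.3%) lower and 16 (5.13%) higher, with a median of −0.11. Genes nearest to positions in all 4 lists gave 218 lower (18.05%) and 57 higher (4.72%) of 1208, with a median of −0.14. Without the control with 0.714 FPKM of Onecut1 the counts lower in DKO were 47 and 23 for the WT and DKO classes against 5.96% of all genes, and without the DKO sample with 46.2 FPKM 50 and 28 against 6.50%. Restricting the WT class to genes with a start within 10 kb gave 35 lower of 129 (27.1%), and the DKO class 36 lower of 170 (21.2%). A nearest start need not be the gene that a distal position acts on, and no test of the list against other genes was made.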

How the data were processed

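HNF6 peaks were deposited per library. Per the file headers and the study's methods, the authors trimmed reads with cutadapt 1.15, aligned them with Bowtie2 2.2.4 to mm9, removed duplicates and called peaks with HOMER findPeaks (factor style) against an input library of the same sample number. The labels and the methods name different library kits. From each deposited file the findPeaks score, the total tags per peak (counts), the normalized tag count (a signal scaled by the authors to 10000000 tags) and the fold change over input, a ratio, were used. WGBS values were deposited as methylated fractions of 200 bp tiles from BSMAP 2.74, and the coverage behind a tile is unknown here. RNA values were deposited as FPKM, which hold no read counts, so their depth is unknown. ATAC-Seq, histone and 5hmC files were deposited as peaks with a score. The reduced representation bisulfite table was not used here, and 6 FPKM columns that match no label were left out. Columns of the authors' own comparisons between samples were not used.

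Peaks were ordered by score, then normalized tag count. Peaks of the 4 lists that overlapped by 1 bp were merged, methylation was read at the tile of the centre, the nearest protein-coding start came from GENCODE M1, and motifs were searched on both strands of the central 200 bp of NCBIM37 (mm9). Shares were compared by exact permutation of library labels. Log2 normalized tag counts, centred on each library's median, were fitted with limma 3.58.1 (trend, Benjamini-Hochberg) over positions in all 4 full lists. RNA was fitted with limma over all groups as log2(FPKM + 1), for genes whose mean reached 1 FPKM under any condition, after 767 rows with repeated names were left out, and fold changes on this scale understate those of low genes. Threshold was an adjusted p of 0.05. Fits were tested on simulated data. R 4.3.3, Python 3.11.15 and matplotlib 3.10.9 were used.

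The labels number the libraries but do not say whether separate animals gave them, although headers carry separate sample numbers. P-values thus concern these samples only. In the tag count fit limma took the spread mostly from a trend over all positions. A small p at 1 position there does not measure the spread of its own counts between libraries. The peaks, lists and tests were chosen with earlier results of these data known. Named positions were the 10 with the highest mean score of each class, up to 6 positions a list, by score, of listed genes nearest to the WT and DKO classes, and the 5 largest changes each way in the tag count fit. Of these changes, 1 is not reported here. Alternatives covered the number of peaks, their order, chromosomes, overlap, limits, scaling, each library left out and, after the data were seen, edgeR 4.0.16 on total tags and the within-library gap.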

Additional observations from a re-analysis of the deposited data

How the results depend on the processing

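The 5 differences in peak shares and the excess of shared positions within a genotype kept their direction in every alternative run, without a p that could pass. Leaving out each library in turn, that excess ranged from 3.19 to 17.9 points, the share on tiles that fell after birth from −14.0 to −11.6 points, on tiles low at birth from 15.7 to 18.8, at WT ATAC-Seq peaks from 5.33 to 8.53, near starts from 2.64 to 4.21 and with a motif from −5.05 to −1.65. Counts of positions follow the list length by construction: the WT class held 280 and 141 and the DKO class 253 and 129 with the 2000 and 1000 highest-scoring peaks, and 620 to 1226 and 793 to 946 without 1 library.

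Of tag count calls, 171 were lower and 46 higher. Quantile normalization gave 58 and 1, no centring 0 and 0, and positions in all 4 lists of 4000 gave 50 and 3. Without 1 library there were 62 to 182 lower and 0 to 189 higher, and edgeR on total tags, added after the data were seen, gave 211 and 44. The median change at positions at least 35 points more methylated in DKO than in adult WT was −0.48, −0.56 to −0.39 without 1 library, and 0.76 without centring, where the median of all positions was 1.27, whereas the gap to the other positions was −0.61 with and without centring and −0.66 to −0.40 in the remaining fits. With the replicate number as a block there were 194 lower and 39 higher. The labels' numbers do not pair the libraries: deviations of same-numbered libraries correlated at 0.012. No paired analysis was possible for RNA because the columns carry numbers that the labels do not explain and no replicate number.

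Genes nearest to the WT class that were lower in RNA numbered 82 (25.8%), where 15.8% of all genes tested were lower. Without 1 sample they numbered 47 to 77 (14.8% to 24.2%), beside 5.96% to 16.65% of all genes. With only the 2 conditions fitted they numbered 60 (18.9%, beside 8.77%), and without the filter on low values 60 (14.0%, beside 4.96%). They numbered 35 within 10 kb (27.1%) and 44 with the 2000 highest-scoring peaks (23.5%). For the DKO class they numbered 54 (17.3%), and 23 to 55 without 1 sample (7.37% to 17.6%). With only the 2 conditions they numbered 36 (11.5%) and without the filter 40 (9.73%). Within 10 kb they numbered 36 (21.2%) and with the 2000 highest-scoring peaks 27 (14.2%). The share of tags in peaks ranged from 0.33% to 5.58% and the totals from 13437081 to 31259057.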
